A study of Mus musculus with 24 samples.

Results

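The nuclear genes for subunits and assembly factors of respiratory complex I, those whose symbols begin with *Nduf*, were described in the *M. gastrocnemius* of mice after 6 h of normoxia or hypoxia. They were taken by gene name, as every non-control probe of the array design with a gene name that begins with *Nduf*. This gave 57 of 55681 probes, for 42 genes. A probe was counted as measured where its mean Cy5 signal, averaged over the 24 arrays, was over 2 times the local background, which held for 53 of the 57 probes and for at least 1 probe of all 42 genes. Of the 14312 measured probes of the array, 9139 genes were tested, and 42 of these were *Nduf* genes. The 4 probes below the limit were 1 for *Ndufa3*, 2 for *Ndufb5* and 1 for *Ndufv3*. The nearest values on either side of it belonged to *Ndufv3*, with a probe at 2.03 times the background that was kept and a probe at 1.78 times the background that was not. The genes fell into 15 named *Ndufa*, 10 *Ndufb*, 2 *Ndufc*, 8 *Ndufs*, 3 *Ndufv* and 4 *Ndufaf*.

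All mice were male C57BL/6JOlaHsd without a genetic modification named in the labels. They arrived at 10 weeks of age, and both groups received a low-fat diet (10% of energy from fat) for 3 weeks and a high-fat diet (40% of energy from fat) for 6 weeks, and were then fasted. The 12 Norm mice stayed at 20.9% oxygen and the 12 Hypox mice were kept at 12% oxygen for 6 h, after which the muscle was taken directly. Each of the 24 2-colour arrays carried the Cy5-labelled RNA of 1 mouse and a Cy3-labelled pool of all samples, so that each value is a log2 ratio of that mouse over the pool, and replicates are mice. Whole muscle was used, in which fewer cells of a type and less RNA per cell cannot be told apart.

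Complex I (NADH:ubiquinone oxidoreductase) is the entry point of electrons from NADH into the respiratory chain. It is L-shaped: its matrix arm takes up electrons from NADH and passes them over a flavin and a row of iron-sulfur clusters to ubiquinone, and its membrane arm pumps protons across the inner mitochondrial membrane. The mitochondrial genome encodes the proton-pumping core of the membrane arm, and nuclear genes encode the electron-carrying core, the accessory subunits around both arms and the assembly factors, which are not part of the finished enzyme. Skeletal muscle fibres, above all the oxidative ones, are rich in the complex.

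The mean Cy5 signal was 58.3 to 933 on the Norm arrays and 63.5 to 1014 on the Hypox arrays. The arrays lay on 6 slides with 2 Norm and 2 Hypox mice each, and the 4 arrays of slide 1 were the dimmest, at 58.3 to 102, so that the count of called genes is also given without them. The genes of the muscle fibre list were present, with all 11 measured at 420 times the background or above, and none of the 11 passed the unadjusted threshold. The median difference of this list was -0.23, with 9 genes below 0. Its array medians spanned 0.063 to 2.35 in Norm and 0.17 to 2.87 in Hypox, with the highest of each group on slide 1. Of markers of other cells, 2 of 8 of slow fibres were higher in Hypox (*Tnni1*, 0.61, and *Tnnc1*, 0.44 on the log2 scale). All 8 differences of that list were above 0, with a median of 0.36. Its array medians spanned -2.07 to 0.53 on the Norm arrays and -0.35 to 0.019 on the Hypox arrays. In the nerve list 3 of 7 genes were lower, among them *Pmp22* and *Prx*, with array medians of -0.26 to 0.46 for Norm and -0.45 to 0.20 for Hypox. In the adipocyte list 2 of the 6 genes tested were lower (*Adipoq* and *Cfd*), and in the endothelium list 2 of 5 were higher (*Cdh5* and *Cldn5*) and 2 were below 0 without passing, the lowest *Kdr* at -0.15. Of the blood list 0 of the 3 genes tested passed, and of the lung list the 1 gene tested, *Sftpc*, was higher (0.81). Over all genes 7.12% were higher and 5.03% lower at this threshold. The part of these lists in the results below was not tested.

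Across the *Nduf* genes, 5 were higher in Hypox and 3 lower at an unadjusted *P*-value under 0.05, the threshold of the study, which is 8 of 42 (19.0%). Over all 9139 genes the same threshold was passed by 12.2%, with 7.12% higher and 5.03% lower. None of the 42 passed after Benjamini-Hochberg adjustment over all genes tested in limma, by which 0.339% of all genes were called; the smallest adjusted *P*-value among them was 0.139, for *Ndufb6*. The higher genes were *Ndufb6*, *Ndufa10*, *Ndufs8*, *Ndufaf2* and *Ndufa4l2*, and the lower ones *Ndufa1*, *Ndufb11* and *Ndufc2*. Of the 42 differences, 20 were above and 22 below 0, with a median of -0.0073 beside 0.029 over all genes. The median over the *Nduf* genes was 0.19 ± 0.19 in Norm and 0.18 ± 0.19 in Hypox on the arrays (SD, n = 12 each). Without slide 1, 6 were higher and 3 lower, beside 8.73% and 5.27% of all genes; *Ndufa10* no longer passed, and *Ndufb8* and *Ndufa12* did. With the slide as a block, 5 were higher and 6 lower, since *Ndufa13*, *Ndufv2* and *Ndufv3* were added to the same 8 genes, beside 7.97% and 6.14% of all genes.

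**Figure D1:**
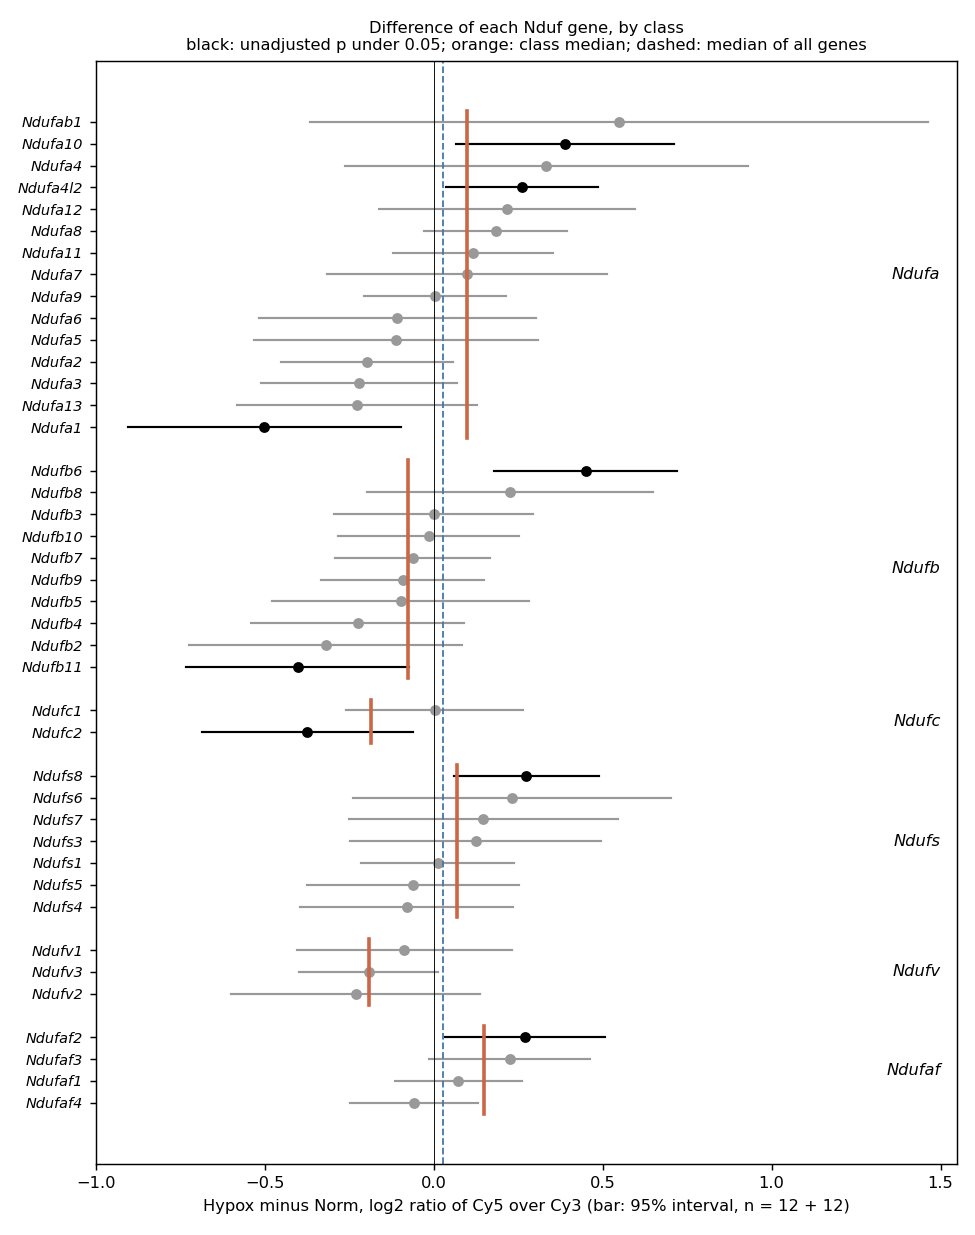
Difference between Hypox and Norm of 41 *Nduf* genes on the log2 scale, with its 95% interval (limma; 12 mice a group, except *Ndufb2* with 10 and 11 and *Ndufaf4* with 12 and 11), sorted within its class. Black marks the 8 genes with an unadjusted *P*-value under 0.05, orange lines the class medians over all 42 genes from -0.19 (*Ndufv*) to 0.15 (*Ndufaf*), and the dashed line the median of all genes tested at 0.029.

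The classes did not share 1 direction. The medians of the differences were 0.099 for *Ndufa* (9 of 15 above 0), -0.077 for *Ndufb* (2 of 10), -0.19 for *Ndufc* (1 of 2), 0.068 for *Ndufs* (5 of 8), -0.19 for *Ndufv* (0 of 3) and 0.15 for *Ndufaf* (3 of 4). The median of the *Ndufaf* genes was higher in the Hypox mice on 6 of 6 slides, by 0.061 to 0.16 in the loess ratios, and that of the *Ndufc* genes lower on 6 of 6, by amounts from -0.034 to -0.74. The medians of *Ndufa*, *Ndufb*, *Ndufs* and *Ndufv* took both directions between slides. These signs hold for the loess-normalized ratios; the medians of *Ndufb*, *Ndufc* and *Ndufv* are above 0 with median centring of the arrays and in the deposited values, and that of *Ndufb* also in the Cy5 channel alone (0.015). With the processed signals the medians were 0.062, -0.016, -0.12, 0.0037, -0.12 and 0.029 in the order above, so that those of *Ndufs* and *Ndufaf* came close to 0.

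The direction of the family as a whole depended on how the arrays were scaled, and the median over all genes moved with it. With median centring in place of loess, 42 of 42 *Nduf* genes were above 0, with a median of 0.49 beside 0.25 over all genes, and 39 of 42 were above that all-gene median. In the deposited values, 41 of 42 were above 0, with a median of 0.34 beside 0.085. With the processed signals of the scanner software the count was 23 of 42 (0.013 beside -0.011), and in the Cy5 channel alone 27 of 42 (0.065 beside 0.020). Calls were fewer under these scalings. With median centring 0 of 42 passed the unadjusted threshold, beside 0.35% of all genes. In the deposited values 3 were higher and 0 lower by limma, beside 3.02% and 2.32% of all genes, and 2 and 0 by the t-test of the methods, beside 2.97% and 2.68%. With the processed signals 3 were higher and 3 lower, beside 3.74% and 7.39%, and in the Cy5 channel alone 6 were higher and 0 lower, beside 4.03% and 3.98%. The processed signals kept 5 of the 8 calls made after loess and added *Ndufa6*, which was lower. The Cy5 channel alone kept 2 of them, *Ndufb6* and *Ndufa10*, and added *Ndufb8*, *Ndufs6*, *Ndufa7* and *Ndufa12*.

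How the differences ran with brightness changed with the scaling. When all genes tested were parted by brightness into 5 groups of equal size, 36 of the 42 *Nduf* genes lay in the brightest, where the median difference of all genes was -0.0097 after loess, 0.43 with median centring and 0.26 in the deposited values, against 0.025, 0.13 and -0.075 in the dimmest. Set against the genes of that brightest group, 16 of the 36 were above its median after loess, 27 with median centring and 26 in the deposited values. At the unadjusted threshold after loess, 5.03% of all genes in the brightest group were higher and 8.75% lower in limma. Over all genes tested these shares were 7.12% and 5.03%. The part of brightness in these differences and calls was not tested.

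**Figure D2:**
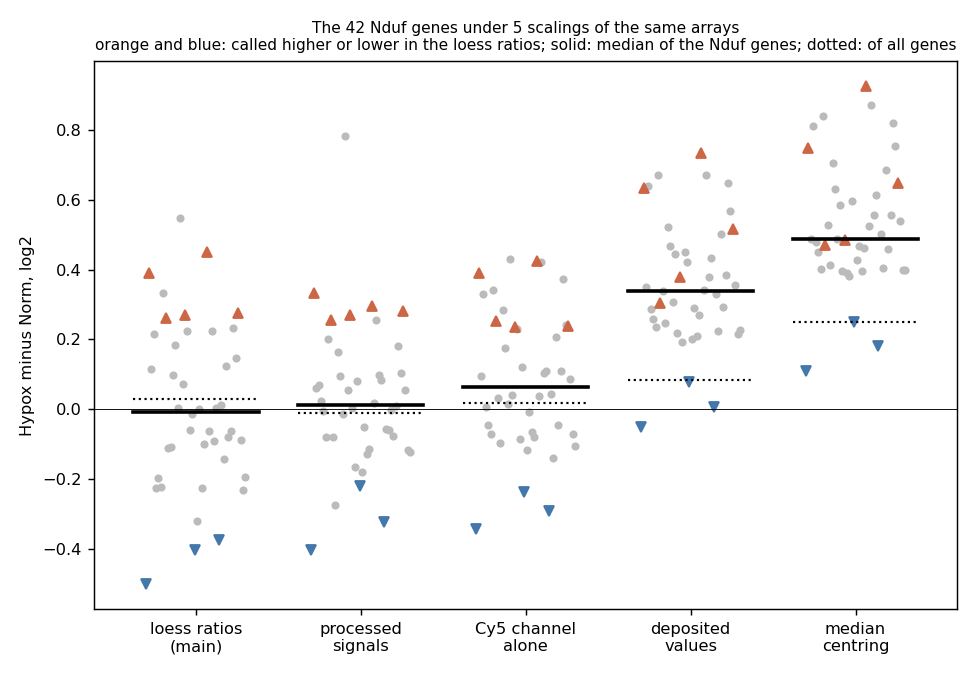
Differences between Hypox and Norm (log2) of the 42 *Nduf* genes under 5 scalings of the same 24 arrays, with the solid line at their median and the dotted line at the median of all genes. The 5 genes that were higher after loess (orange) stay above 0 under each scaling, while the 3 lower ones (blue) lie above 0 with median centring and, for *Ndufb11* and *Ndufc2*, in the deposited values.

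*Ndufb6*, an accessory subunit of the membrane arm, had the largest increase with an unadjusted *P*-value under 0.05. Its log2 ratios spanned -0.22 to 0.60 in the Norm mice (median 0.11) and 0.17 to 1.70 in the Hypox mice (median 0.45). All 12 Hypox mice lay above the Norm median and 9 of 12 Norm mice below the lowest Hypox mouse, although the groups overlapped. The difference was 0.45 ± 0.13 (SE; limma, unadjusted *P*-value = 0.00208, adjusted 0.139), a 1.37-fold higher ratio, and was positive on 6 of 6 slides (0.15 to 0.84). It passed the unadjusted threshold in each of the 24 fits that leave out 1 mouse (0.35 to 0.49) and, apart from median centring (0.93, *P*-value = 0.0952), under each alternative processing.

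*Ndufa10*, a membrane-arm subunit with a fold like that of nucleoside kinases, spanned -1.03 to 0.19 in the Norm mice (median -0.40) and -0.71 to 1.18 in the Hypox mice (median -0.17). Here 11 Hypox mice lay above the Norm median and 3 above all Norm mice. The difference was 0.39 ± 0.16 (*P*-value = 0.0199), positive on 4 of 6 slides, at 0.91 and 0.97 on slides 1 and 2. Without slide 1 it was 0.28 (*P*-value = 0.0554).

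*Ndufs8*, a core subunit that carries iron-sulfur clusters close to the ubiquinone site, spanned -0.80 to 0.091 in the Norm mice (median -0.39) and -0.61 to 0.19 in the Hypox mice (median -0.13), and 10 Hypox mice lay above the Norm median. The difference was 0.27 ± 0.11 (*P*-value = 0.0143), positive on 5 of 6 slides. It did not pass in the Cy5 channel alone (difference 0.24, *P*-value = 0.0631 in limma), in the deposited values (0.52, *P*-value = 0.0942) or with median centring (0.65, *P*-value = 0.195). Of the 7 nuclear core genes 1 thus passed, beside 12.2% of all genes; with the slide as a block *Ndufv2* passed too (*P*-value = 0.0401).

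*Ndufaf2*, an assembly factor related in sequence to the subunit *Ndufa12*, spanned -0.66 to 0.10 in the Norm mice (median -0.17) and -0.34 to 0.93 in the Hypox mice (median -0.067). The difference was 0.27 ± 0.12 (*P*-value = 0.0265) and positive on 6 of 6 slides (0.062 to 0.39). It did not pass without Norm replicate 2, Hypox replicate 9 or Hypox replicate 12, with *P*-values up to 0.0545. Nor did it pass in limma with the processed signals (difference 0.27, *P*-value = 0.0569), in the Cy5 channel alone (0.24, *P*-value = 0.0914) or with median centring (0.485, *P*-value = 0.177). By the t-test of the methods on the deposited values it did not pass either (0.38, *P*-value = 0.0548).

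*Ndufa4l2*, a relative of *Ndufa4* known as a target of hypoxia-inducible factor 1 that lowers complex I activity, spanned -0.37 to 0.25 in the Norm mice (median -0.061) and -0.34 to 1.11 in the Hypox mice (median 0.16). The Hypox mice were above the Norm median in 11 of 12 cases, and 1 of them, Hypox replicate 2 at 1.11, stood well above the other 11, of which the highest reached 0.30. The difference was 0.26 ± 0.11 (*P*-value = 0.0242), positive on 5 of 6 slides. The call was lost in limma in the Cy5 channel alone (difference 0.25, *P*-value = 0.103) and under processed signals (0.26, *P*-value = 0.145). It was also lost in the deposited values (0.30, *P*-value = 0.0785) and with median centring (0.47, *P*-value = 0.139). The probe was among the dimmer ones, at 7.53 times the background and well above it on 10 Norm and 11 Hypox arrays.

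*Ndufa1*, a small membrane-arm subunit encoded on chromosome X, showed the largest decrease. It spanned -0.35 to 1.91 in the Norm mice (median 0.98) and -0.29 to 1.11 in the Hypox mice (median 0.32). Only 1 Hypox mouse lay above the Norm median and 6 Norm mice lay above all Hypox mice, with 1 Norm mouse below all of them. The ratio fell by 0.50 ± 0.20 (-0.50; *P*-value = 0.0170), to 0.707 of the Norm ratio, and was lower on 6 of 6 slides. The value was -0.40 with the processed signals, -0.34 in the Cy5 channel alone (*P*-value = 0.0607) and -0.049 in the deposited values (limma, *P*-value = 0.897), and it turned to 0.11 with median centring.

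*Ndufb11*, also a membrane-arm subunit encoded on chromosome X, spanned -0.0077 to 1.31 in the Norm mice (median 0.59) and -0.22 to 0.95 in the Hypox mice (median 0.12). The difference was -0.40 ± 0.16 (*P*-value = 0.0189) and negative on 5 of 6 slides, with -1.17 on slide 2. *Ndufc2*, an accessory subunit of the membrane arm, spanned -0.50 to 1.27 in the Norm mice (median 0.028) and -0.60 to 0.11 in the Hypox mice (median -0.27), with 4 Norm mice above all Hypox mice. The difference was -0.37 ± 0.15 (*P*-value = 0.0208) and negative on 6 of 6 slides, but -1.37 on slide 2 and between -0.30 and -0.074 on the others. Both were not called in the Cy5 channel alone (-0.24 and -0.29), in the deposited values (0.078 and 0.0055) or with median centring (0.25 and 0.18). *Ndufb11* was also not called with the processed signals (-0.22, *P*-value = 0.0600 in limma).

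**Figure D3:**
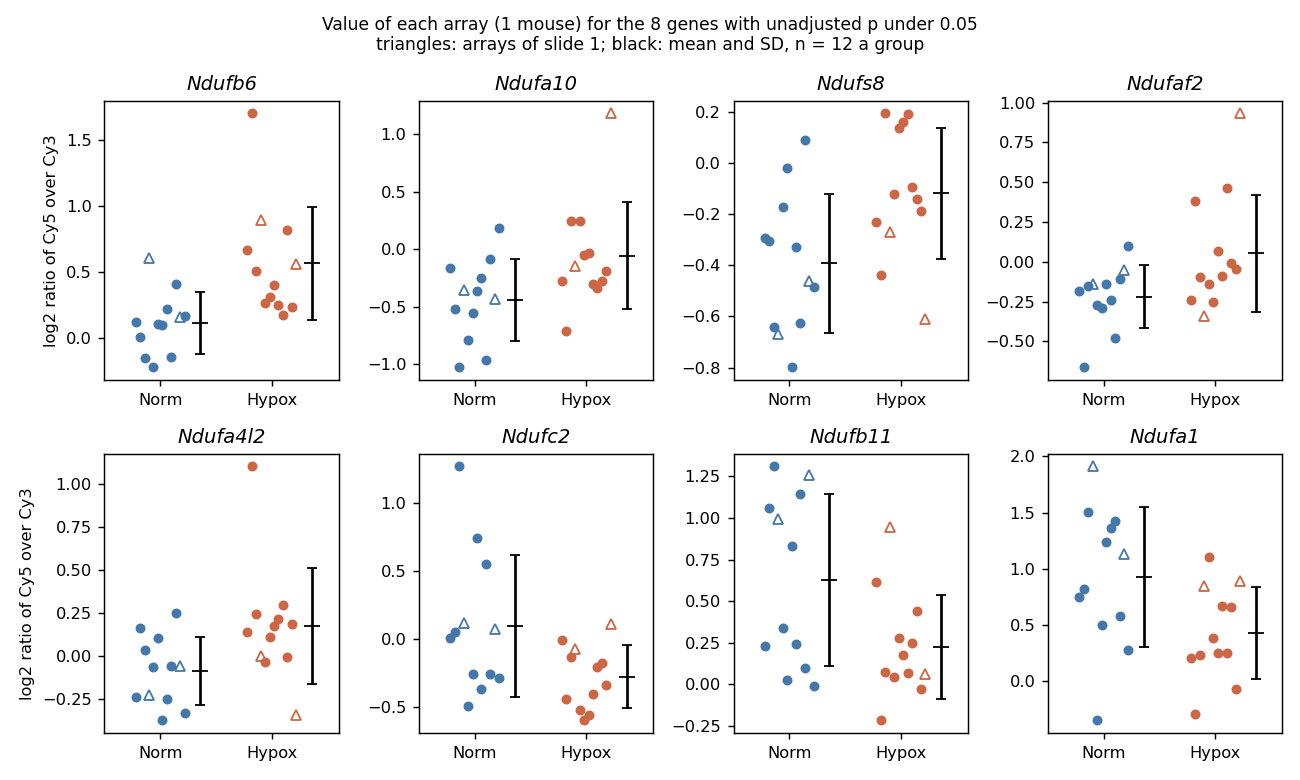
Log2 ratio of Cy5 over Cy3 of each mouse for the 8 *Nduf* genes with an unadjusted *P*-value under 0.05, Norm in blue and Hypox in orange, with mean and SD (n = 12 each) and the arrays of slide 1 as open triangles. The groups overlap in all 8 genes, and single mice stand apart, such as the Hypox mouse at 1.70 for *Ndufb6* and the one at 1.11 for *Ndufa4l2*.

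The 7 nuclear core subunits, which make up the electron-carrying part of the matrix arm, had a median difference of 0.011, with 4 above 0. *Ndufv1*, which binds NADH, differed by -0.087 ± 0.16 (95% interval -0.41 to 0.23) and *Ndufv2*, its iron-sulfur partner, by -0.23 ± 0.18 (-0.60 to 0.14). *Ndufs1*, the largest subunit, differed by 0.011 ± 0.11 (-0.21 to 0.24). *Ndufs7*, which lies at the ubiquinone site, differed by 0.15 ± 0.19 (-0.25 to 0.55), and *Ndufs3* by 0.13 ± 0.18 (-0.25 to 0.50). The intervals of these 5 genes include 0, and those of *Ndufs3* and *Ndufs7* also include a difference as large as that of *Ndufb6*.

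Over the 16 subunits of the matrix arm, *Ndufs8* was the 1 that passed, and the median difference was -0.038 with 8 above 0. With the slide as a block in limma, *Ndufv2* (*P*-value = 0.040) and *Ndufv3* (*P*-value = 0.034) passed too, both lower, beside 6.14% of all genes. Among the accessory subunits of the matrix arm, *Ndufs4*, loss of which causes Leigh syndrome, differed by -0.080 ± 0.15. *Ndufs6*, which binds zinc, differed by 0.23 ± 0.23 and *Ndufa12* by 0.22 ± 0.18. Leaving out 1 mouse gave differences from 0.052 to 0.33 for *Ndufs6* and from 0.094 to 0.29 for *Ndufa12*. *Ndufv3* came closer to the threshold, at -0.19 ± 0.10 (*P*-value = 0.0643), with 4 Hypox mice below all Norm mice. Of the 21 genes of the membrane arm that were tested, which include *Ndufb1* under an older name on the array, 2 were higher and 3 lower, with a median of -0.061. Over all genes 7.12% were higher and 5.03% lower. In this arm *Ndufb3* differed by -0.00012 ± 0.14 and *Ndufc1* by 0.0030 ± 0.13, while *Ndufb2* was at -0.32 ± 0.20 (*P*-value = 0.115) and *Ndufb4* at -0.23 ± 0.15 (*P*-value = 0.154). *Ndufa8*, whose protein lies on the side of the intermembrane space, was at 0.18 ± 0.10 (*P*-value = 0.0861).

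*Ndufa4*, named as a complex I subunit but now counted to cytochrome c oxidase, spanned -0.79 to 1.17 in the Norm mice (median 0.044) and -1.06 to 2.59 in the Hypox mice (median 0.35). This was among the widest spreads of the family, and its difference of 0.33 ± 0.29 did not pass (*P*-value = 0.262). Leaving out 1 mouse gave differences of *Ndufa4* from 0.14 to 0.47. The highest value, 2.59, was that of Hypox replicate 4. *Ndufab1*, the mitochondrial acyl carrier protein, which also serves the synthesis of lipoic acid, had the highest difference of all 42, 0.55 ± 0.45, and did not pass either (*P*-value = 0.229). That value came from 1 array: Hypox replicate 5 stood at 5.89, whereas the other 23 arrays lay between -0.41 and 0.22, and without it the difference was 0.055. The probe was dim, at 2.65 times the background and well above it on 7 arrays of each group.

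Of the 4 *Ndufaf* assembly factors, *Ndufaf2* passed, beside 12.2% of all genes. *Ndufaf3*, which acts early in assembly, was at 0.23 ± 0.12 (*P*-value = 0.0635). All 12 Hypox mice lay above the Norm median and 6 Norm mice lay below all Hypox mice. The gene passed without any 1 of 4 mice (Norm replicates 2 and 10, Hypox replicates 9 and 12). Leaving out 1 mouse gave differences from 0.13 to 0.27, with *P*-values up to 0.12 in limma. Hypox replicate 2 stood highest, at 1.07, beside a Hypox median of -0.060. With the processed signals the difference of *Ndufaf3* was 0.0038 (*P*-value = 0.982). *Ndufaf4*, its partner, was at -0.059 ± 0.092 and *Ndufaf1*, a factor of the membrane arm, at 0.073 ± 0.092. Among 11 tested assembly factors whose names do not begin with *Nduf*, *Foxred1* (0.21 ± 0.097, *P*-value = 0.0351) and *Tmem70* (0.19 ± 0.083, *P*-value = 0.0334) were higher and none was lower at the unadjusted threshold, beside 7.12% and 5.03% of all genes, with a median of 0.089. *Tmem70* also serves the assembly of ATP synthase. The other 9 ranged from -0.13, for *Tmem126b*, to 0.15.

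More than 1 probe was measured for 10 genes, which shows how far a difference rests on the probe. *Ndufb11* has a pair of probes that share 55 of their 60 bases, on the minus strand of chrX:20192448-20192507 and chrX:20192453-20192512 (mm9). Their first 30 bases are shown because the values differ although the targets nearly coincide, with the shared stretch in capitals.
*Ndufb11*, first probe: CGCTGCTTGTTATTTACCTGGTTCCTCAGA
*Ndufb11*, second probe: tcatcCGCTGCTTGTTATTTACCTGGTTCC

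The first of them, at 604 times the background, gave -0.15 (*P*-value = 0.463), and the second, which stands for the gene, stood at 550.1 times and gave -0.40. Their values correlated at 0.55 over the 24 arrays. The difference between them, 0.25 ± 0.19, did not pass in a 2-sided permutation of the condition (*P*-value = 0.224, or 0.384 adjusted over 12 pairs). The remaining probe, far dimmer, gave -0.068 (*P*-value = 0.455), so that the call of *Ndufb11* holds for 1 of its 3 probes. The probes of *Ndufb4* share 37 bases and gave -0.23 and -0.25, and those of *Ndufb2* share 30 bases and gave -0.32 and -0.28, correlated at 0.83.

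*Ndufb6* has a probe that spans an intron, at chr4:40219858-40224715 on the minus strand (mm9), and another one further 3′ at chr4:40217720-40217779. They do not overlap, so their first 30 bases are given without capitals.
*Ndufb6*, intron-spanning probe: gttcactattatgtcaaatatcatatggct
*Ndufb6*, 3′ probe: cagcacaagtatgttcctaaagtgctgtat

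The first, the brighter one at 134 times the background, gave the 0.45 above, and the second, at 80.7 times, gave 0.078 (*P*-value = 0.684). Within groups their values ran opposite to each other over the arrays (r = -0.65). The difference of 0.37 ± 0.32 between them did not pass (permutation *P*-value = 0.271, adjusted 0.406). The call of *Ndufb6* thus holds for 1 of its 2 probes; with the mean of both it was 0.26 (*P*-value = 0.00280).

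The probes of *Ndufb5* gave -0.098 and 0.35, the latter with an unadjusted *P*-value of 0.0216 in the fit over all measured probes, in which 14.1% of probes passed. They lie 139 bases apart on chromosome 3, and theirs was the one difference among the 12 pairs that passed after adjustment over the pairs (-0.45 ± 0.13; permutation *P*-value = 0.00263, adjusted 0.0316). They are shown for this reason.
*Ndufb5*, brighter probe: gtgtgtccctctagtgggaagaaatgaata
*Ndufb5*, dimmer probe: cagggtagtaatgaaacctggaggtctggg

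The 2 probes stood at 289 and 19.8 times the background. The signs also differed between the probes of *Ndufv3* (-0.19 and 0.090) and of *Ndufaf4* (-0.059 and 0.13), where the adjusted *P*-values of the difference by the permutation test were 0.0770 and 0.0665. The pairs of *Ndufa3* and *Ndufa5* were negative on both probes.

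**Figure D4:**
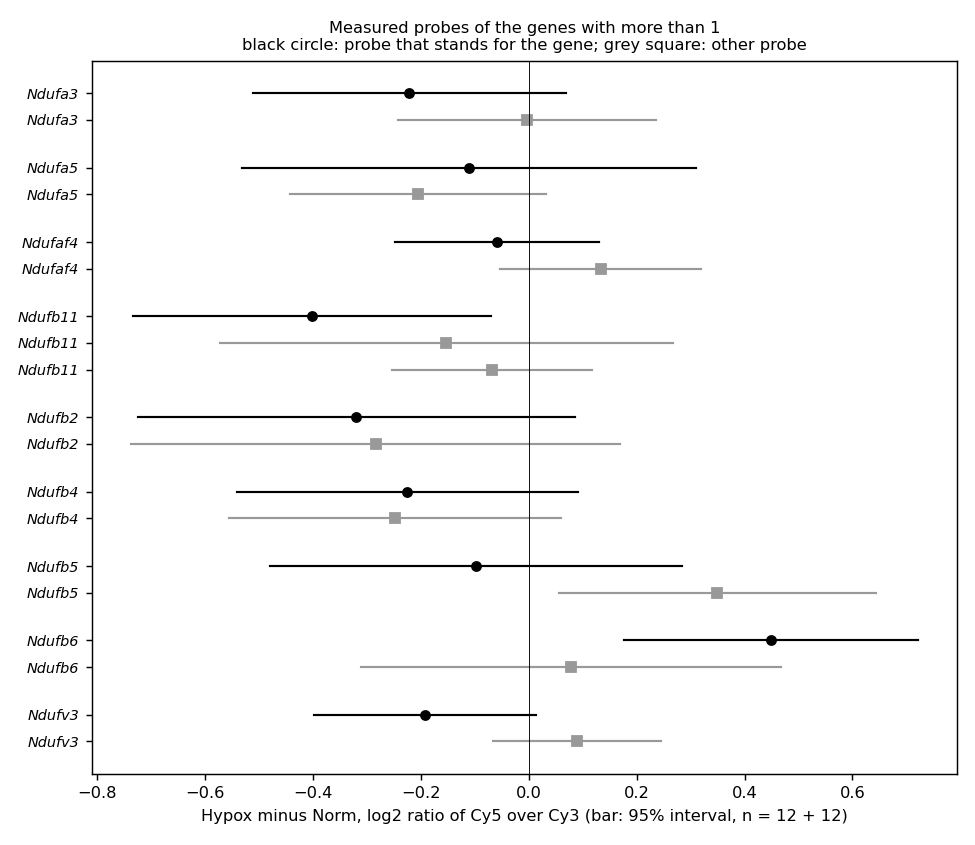
Difference between Hypox and Norm (log2, with 95% interval from the fit over all measured probes) for each measured probe of 9 *Nduf* genes with more than 1, as a black circle for the probe that stands for the gene and a grey square for another. The probes of *Ndufb5*, *Ndufv3* and *Ndufaf4* lie on opposite sides of 0.

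The spread between mice was large beside the differences, and some mice stood out across genes. Hypox replicate 2 held the highest value of 10 genes and the lowest of 6, and Norm replicate 5 the lowest of 9. Norm replicate 5 also had the lowest array median of the slow-fibre list, -2.07, and of the *Nduf* genes, -0.078. A link between these values was not tested. Norm replicates 3 and 4 held the highest values of 7 and 6 genes. The array median over the 42 genes was highest on slide 1, with 0.49 in Norm and 0.42 in Hypox, and between 0.0032 and 0.22 in both groups on slides 2 to 6. Within slides the Hypox mice minus the Norm mice ranged from -0.093 on slide 2 to 0.18 on slide 6 and were positive on 2 of 6 slides.

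After the means of the groups and slides were removed, the *Nduf* genes varied together only in part over the 24 arrays. The median correlation was 0.12 over the 861 pairs of *Nduf* genes (60.6% above 0), beside -0.00055 over all pairs of genes tested. It was 0.18 among *Ndufa*, 0.33 among *Ndufb* (88.9% above 0) and 0.098 among *Ndufs* genes. The pairs share arrays, slides and brightness, and no test was made. The highest correlation was that of *Ndufa12* and *Ndufs3* (0.95), followed by *Ndufs3* and *Ndufs7* (0.92), and *Ndufa5* with *Ndufb5* was at 0.87. *Ndufa10* ran opposite to these, with -0.86 to *Ndufs3* and a median of -0.34 to the other *Nduf* genes. The lower genes *Ndufb11* and *Ndufc2* correlated at 0.65 and *Ndufa1* with them at 0.24 and 0.48, whereas the 10 pairs of the 5 higher genes had a median of -0.077. Without slide 1 the medians were 0.069 over all *Nduf* pairs and 0.32 among *Ndufb*, and without the 2 arrays that held most extremes, Norm replicate 5 and Hypox replicate 2, 0.11 and 0.25; the correlation of *Ndufa12* and *Ndufs3* was then 0.93 and 0.91, and that of *Ndufa1* with *Ndufc2* 0.55 and 0.26.

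**Figure D5:**
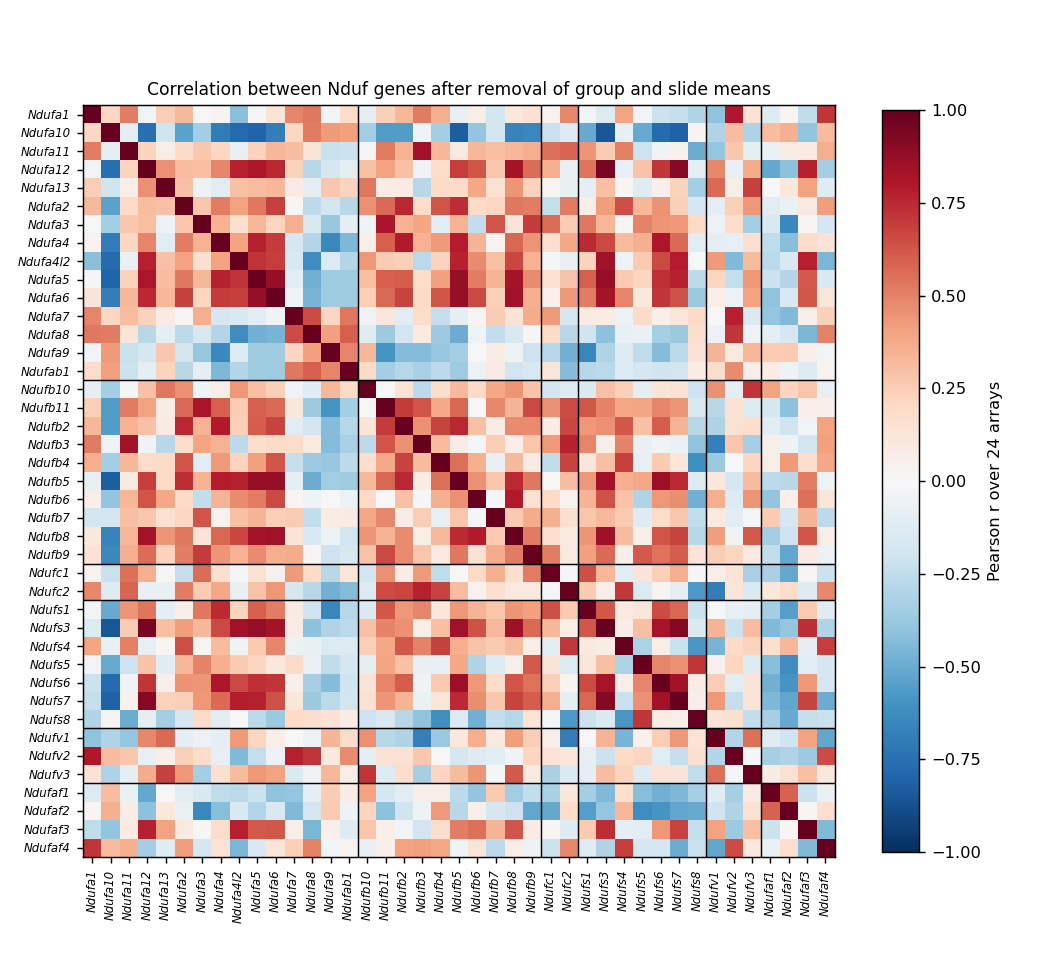
Pearson correlation of each pair of 41 *Nduf* genes over the 24 arrays after removal of group and slide means, ordered by class (black lines), from blue (-1) over white to red (1). A group around *Ndufs3*, *Ndufs7*, *Ndufa12*, *Ndufa5* and *Ndufb5* is red, with correlations of 0.87 to 0.95 for the pairs named in the text, and *Ndufa10* is blue to it.

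The other complexes of the respiratory chain gave the setting. Of complex II, 0 of 4 genes passed the unadjusted threshold, of complex III 2 of 9, both lower (*Uqcrb*, -0.48, and *Uqcrh*, -0.38), and of complex IV 2 of 13, 1 higher (*Cox6b1*, 0.23) and 1 lower (*Cox6c*, -0.49). Of complex V (ATP synthase) 3 of the 14 tested were lower (*Atp5a1*, *Atp5j* and *Atp5j2*, at -0.32 to -0.38). Over all genes 12.2% passed in either direction. None of these passed after adjustment in limma, and the list medians, 0.019, -0.042, -0.076 and -0.23, stood beside -0.038 for the 38 *Nduf* subunits. Of 11 regulators of nuclear genes for the respiratory chain, none passed; the extremes were the coactivator *Ppargc1a* (-0.21 ± 0.10, *P*-value = 0.0535, below 0 on 6 of 6 slides) and *Gabpa*, the DNA-binding part of GABP (0.21 ± 0.12, *P*-value = 0.0954).

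A promoter window, from 250 bases before to 50 bases after the start of the gene (RefSeq, GRCm38.p6), was held for 37 of the 42 genes, and for 7 of the 8 genes above, all but *Ndufa4l2*. The windows were rich in G and C, with a median of 59.3% beside 60.7% over 7241 genes tested, and 0 of 37 had TATAAA at 50 to 11 bases before the start, beside 1.64%. An opposite-strand gene started at most 1000 bases upstream in 10 of the 37 (27.0% beside 19.6% of genes tested), such as *Ercc8* 113 bases from *Ndufaf2*, at 0.059 (*P*-value = 0.663) beside the 0.27 of *Ndufaf2*. The windows were searched on both strands for the letters of 6 known sites, and no match of one overlapped a match of another. CCGGAAG, an ETS-type site of GABP, was in 5 windows (13.5%, beside 20.9% of genes tested), among them *Ndufb6* and *Ndufs8*. GCGCATGC, part of the NRF1 site, was in 4 (10.8% beside 6.04%). AAGGTCA, the half-site of estrogen-related receptors, was in 3 (8.11% beside 4.23%), and GTAAACA, a forkhead site, in 1 (2.70% beside 3.33%). ACGTG, the core of the hypoxia response element, was in 7 (18.9% beside 29.7%). Of the 7 genes above with a window it was in that of *Ndufa1* alone, and *Ndufa4l2* could not be searched. A match is a description of letters and shows no binding.

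The upstream parts of 2 windows are given, that of *Ndufb6* for the largest increase and that of *Ndufa1* for the largest decrease among the 8, both on the minus strand and read 5′ to 3′ towards the start, with the matched letters in capitals. That of *Ndufb6* lies at chr4:40279422-40279671 with the GABP letters read on the other strand, and that of *Ndufa1* at chrX:37191239-37191488 with the core of the hypoxia response element (GRCm38.p6).
*Ndufb6*: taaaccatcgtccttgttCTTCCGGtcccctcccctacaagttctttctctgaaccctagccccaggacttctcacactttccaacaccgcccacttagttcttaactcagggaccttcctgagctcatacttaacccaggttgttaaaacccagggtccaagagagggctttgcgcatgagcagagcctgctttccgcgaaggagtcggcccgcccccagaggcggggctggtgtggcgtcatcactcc
*Ndufa1*: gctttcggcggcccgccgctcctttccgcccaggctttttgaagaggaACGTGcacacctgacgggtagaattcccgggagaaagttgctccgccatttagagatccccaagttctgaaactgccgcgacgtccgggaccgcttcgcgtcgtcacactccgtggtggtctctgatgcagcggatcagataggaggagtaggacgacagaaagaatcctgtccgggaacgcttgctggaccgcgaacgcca

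AAGATGGC, the site of YY1, was in 7 windows (18.9% beside 5.68% of genes tested). None of them belonged to the 7 of the 8 genes above that had a window. In all 7 it was read on the strand of the gene, at 23 to 39 bases after the start. Of the 446 matches in the genes tested, 94 (21.1%) lay on that strand and in that range; since the 7 matches themselves set the range, this is a description only. The letters hold an ATG, and whether it is the start codon was not checked. The differences of the 7 genes ranged from -0.22 (*Ndufa3*) to 0.23 (*Ndufs6*). The letters are shown in capitals with up to 8 bases on either side (GRCm38.p6).
*Ndufa3*, chr7:3617387-3617410, plus strand: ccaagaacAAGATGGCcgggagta
*Ndufa9*, chr6:126849100-126849123, minus strand: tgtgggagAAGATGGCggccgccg
*Ndufb8*, chr19:44555393-44555412, minus strand: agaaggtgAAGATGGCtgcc
*Ndufc1*, chr3:51408918-51408941, minus strand: tgcggaacAAGATGGCgccgtccg
*Ndufs4*, chr13:114388045-114388067, minus strand: cctacaggAAGATGGCggcggtc
*Ndufs6*, chr13:73328434-73328457, minus strand: tcaccggcAAGATGGCggcggtgc
*Ndufs7*, chr10:80249465-80249488, plus strand: ccgaggccAAGATGGCggcgctgg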

How the data were processed

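Per the labels and file headers, the authors hybridised the Cy5-labelled muscle RNA of each mouse with a Cy3-labelled pool on 24 2-colour arrays and read the deposited spot intensity values with Agilent Feature Extraction 10.7.3.1; on some Hypox samples the labels also name other dyes. The deposited series table holds log2 values, which the authors derived in GeneMaths XT. Its columns follow Cy5 and share a median of 6.58, and their centring and their use of Cy3 remain unknown.

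Mean Cy5 and Cy3 signals were background-corrected by normexp (offset 50) and loess-normalized within arrays in limma 3.58.1 (R 4.3.3). Readings of outlier spots were set to missing (7260), spots of a probe were averaged, and probes over 2 times the background with at most 4 missing arrays were kept. The probe with the highest mean of log2 Cy5 and log2 Cy3 after normalization stood for a gene; for *Ndufb11* another probe had the higher ratio of Cy5 over background. Norm and Hypox were compared by limma without a block over 9139 genes. Probes were named through RefSeq accessions (27235), symbols (3581) or synonyms (565), and 24300 stayed unnamed. The fit was tested on simulated data with 9139 genes, where all 200 genes changed by 1 log2 unit were recovered with 6 false calls. Recovery of changes smaller than 1 log2 unit, such as the 0.45 of *Ndufb6* or the -0.50 of *Ndufa1*, was not tested. The number of arrays limits the precision.

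The alternatives were median centring, the scanner's processed signals, Cy5 without Cy3, the authors' deposited log2 values, the t-test named in the methods, other filters, the mean of probes, slide and replicate blocks, and leaving out each mouse. The fit without slide 1 was chosen after seeing the data. Genes were described in full where their unadjusted P-value was under 0.05, at the extremes of a class or list, with more than 1 probe, or for their role. The members and lists were chosen with earlier results of these data known. Some genes are counted in the totals but not reported here by name.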

Additional observations from a re-analysis of the deposited data

How the results depend on the processing

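With the processed signals, 3 *Nduf* genes were higher and 3 lower. With median centring, 0 were higher and 0 lower in limma, by which 0.35% of all genes passed the same unadjusted threshold, and the medians were 0.49 over all *Nduf* genes, 0.49 for *Ndufa*, 0.50 for *Ndufb*, 0.40 for *Ndufc*, 0.60 for *Ndufs*, 0.40 for *Ndufv* and 0.39 for *Ndufaf*; *Ndufa1* (0.11), *Ndufb11* (0.25) and *Ndufc2* (0.18) turned positive. In the Cy5 channel alone, 6 were higher and 0 lower. In the deposited values, 3 were higher and 0 lower by limma (*Ndufb6*, *Ndufa10* and *Ndufaf2*) and 2 and 0 by the methods' t-test, the medians were 0.34, 0.34, 0.32, 0.22, 0.44, 0.23 and 0.30 in the same order, and *Ndufb11* (0.078) and *Ndufc2* (0.0055) turned positive. Less the median of all genes, *Ndufa1*, *Ndufb11* and *Ndufc2* were at -0.14, -0.00025 and -0.071 with median centring and at -0.13, -0.0069 and -0.079 in the deposited values. With the slide as a block, 6 were lower. The cause of these changes was not tested.

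Leaving out each mouse gave 5 to 6 higher and 3 to 6 lower genes, beside 10.68% to 14.12% of all genes in either direction; the 6 came without Hypox replicate 4 (13.1% of all genes), where *Ndufb2*, *Ndufa3* and *Ndufv3* were added. The median over the *Nduf* genes then lay between -0.060 and 0.014, that of *Ndufa* between 0.0061 and 0.13, of *Ndufb* between -0.11 and -0.017, of *Ndufc* between -0.23 and -0.15, of *Ndufs* between 0.0018 and 0.14, of *Ndufv* between -0.22 and -0.12 and of *Ndufaf* between 0.095 and 0.18. The count past the adjusted threshold was 0 in each of these fits of limma. With the mean of probes *Ndufb11* did not pass (-0.21, unadjusted *P*-value = 0.0844). Without a filter, and with one at 3 times the background, at which *Ndufab1* was not tested, the 8 calls were kept.

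The replicate numbers were not taken as pairs of mice. Of 12 pairs 3 had a correlation of deviations over 0.1 (-0.20 to 0.51), and 2 mice correlated best with their own number. Only 1 pair, replicate 4 at 0.51, lay on 1 slide, so these correlations cannot decide whether the mice were paired. With the replicate block, 6 were higher and 3 lower, since *Ndufaf3* was added, beside 13.0% of all genes in either direction.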

Other observations

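The array carries 6 further genes whose present symbols begin with *Nduf* under older names, which were found after the values were seen and are counted in none of the 6 classes above; of them, *Ndufb1* is part of the membrane-arm list. *Ndufaf6*, an assembly factor, was at 0.33 ± 0.14 (unadjusted *P*-value = 0.0297 in limma), *Ndufaf7*, also an assembly factor, at 0.32 ± 0.15 (*P*-value = 0.0480) and *Ndufa11b* at 0.18 ± 0.085 (*P*-value = 0.0397), each positive on 5 of 6 slides. *Ndufaf5* was at 0.14 ± 0.11, *Ndufaf8* at 0.030 ± 0.069 and *Ndufb1* at -0.054 ± 0.086, none past the threshold, which makes 3 of 6 beside 12.2% of all genes. None of the 6 passed after adjustment over all genes, where the values of the 3 higher genes were 0.345, 0.404 and 0.376.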
